A study of Mus musculus with 12 samples.

Results

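Cytosolic ribosomal protein genes were followed in mouse T helper cells. They were taken as the protein-coding genes of the deposited tables whose names start with Rpl (large subunit) or Rps (small subunit), without the Rps6k kinases, without names that mark a pseudogene (-ps) and without 1 further gene. The rule found 85 of 41457 genes. Of these, 45 were genes of the large subunit and 31 genes of the small subunit, here called the 76 canonical genes, and 9 were paralogs, retrogenes or a binding protein (Rpl3l, Rpl7l1, Rpl10l, Rpl22l1, Rpl36al, Rpl39l, Rps27l, Rps27rt and Rps19bp1). The number of members that had enough reads to be tested was 83. Rpl10l had 0 reads in all 12 libraries, and Rpl3l had 11 over the 12 libraries together.

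The cytosolic ribosome is built from ribosomal RNA and a set of ribosomal proteins that are made in nearly equal amounts. Most of these proteins are encoded by 1 gene each, and the mouse genome also carries many processed copies of their messages. Their mRNAs start with a run of pyrimidines, the 5′ terminal oligopyrimidine (TOP) tract, through which mTORC1 and LARP1 control their translation and stability. T cells enlarge their ribosome pool when they leave rest and start to divide.

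Poly(A) RNA was sequenced from CD4+ T cells of spleen and lymph nodes of C57BL/6 mice, cultured as Th1, Th2 or Th17 cells and collected on day 2.5 or on day 3.5. The mice were wild type (WT) or NFATc1/ΔS, a line whose NFATc1 cannot be modified by SUMO. There was 1 library for each of the 12 combinations of culture, genotype and day, and no label ties a library to an animal, so p-values measure only the spread between these libraries. All cultures had plate-bound anti-hamster IgG at 12.5 µg/ml, anti-CD28 at 1 µg/ml and 5% FCS. Th1 cultures had anti-CD3 at 0.5 µg/ml, IL-12 at 10 ng/ml and anti-IL-4 at 2.5 µg/ml. Th2 cultures had anti-CD3 at 0.5 µg/ml, IL-4 at 50 ng/ml and anti-IFN-γ at 2.5 µg/ml. Th17 cultures had anti-CD3 at 0.25 µg/ml, TGFβ at 0.5 ng/ml, IL-6 at 20 ng/ml, and anti-IFN-γ and anti-IL-4 at 2.5 µg/ml each. Th1 and Th2 cells grew in RPMI and Th17 cells in IMDM, so effects of the medium, of the lower anti-CD3 dose and of Th17 differentiation cannot be told apart. The labelled cell types carried genes of their lineages: Tbx21, the Th1 factor, was at 34.7 to 66.5 CPM (gene reads per TMM-scaled library total of 1e+06) in Th1 and at most 4.18 elsewhere, Gata3, the Th2 factor, at 561 to 741 in Th2 and at most 94.2 elsewhere, and Il17f, a Th17 cytokine, at 8.11 to 59.9 in Th17 and at most 1.15 elsewhere. Libraries held 13417121 to 17774400 gene reads, of which 78.9 to 81.4% were unique, that is, assigned by the authors to 1 place in the genome.

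The sequences below show 2 features of the genes: the start of the mRNA, where the TOP tract lies, and copies so alike that reads cannot be assigned between them. No level or change was tested against the start sequence. RefSeq promoter sequences (GRCm38.p6) matched 66 of the 85 members. Each stretch runs from 10 bases before to 20 bases after the annotated start, with its longest run of C and T in capitals. Canonical genes of high level that are not printed here had runs of varied length and also fell between the days in Th2 and Th17. Their longest run was 2 bases in Rps3a1, 3 in Rps15 and Rpl41, 4 in Rps4x, 6 in Rpl4 and 7 in Rplp0. Rpl19 had runs of 5 and 10 at its annotated starts. In Th2 and Th17 on total reads, Rps27, Rps6 and Rpl22l1 fell between the days, Rps27l and Rpl7l1 rose, and Rpl39l was higher in NFATc1/ΔS. In Th1 Rps27, Rps6 and Rpl22l1 were not lower at day 3.5, Rps27l fell, and Rpl39l was not higher in NFATc1/ΔS. Rpl7l1 was at 87.3 and 88.7 CPM in WT Th1 and went from 189 to 85.7 in NFATc1/ΔS. Rps6 did not fall on its few unique reads. Rps27rt is the retrogene copy of Rps27. Rps27 is at chr3:90213629-90213658 (minus strand), Rps27rt at chr9:114982720-114982749 (minus), Rps6 at chr4:86857348-86857377 (minus), Rpl22l1 at chr3:28805498-28805527 (plus), Rps27l at chr9:66946076-66946105 and, for a second annotated start downstream, chr9:66946403-66946432 (both plus), Rpl7l1 at chr17:46782637-46782666 (minus) and Rpl39l at chr16:10170218-10170247 (plus).
Rps27: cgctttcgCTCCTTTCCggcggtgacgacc
Rps27rt: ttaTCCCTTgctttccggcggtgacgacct
Rps6: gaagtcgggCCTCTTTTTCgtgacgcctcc
Rpl22l1: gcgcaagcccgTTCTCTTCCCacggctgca
Rps27l, upstream start: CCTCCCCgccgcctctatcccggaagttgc
Rps27l, downstream start: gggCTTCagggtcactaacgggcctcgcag
Rpl7l1: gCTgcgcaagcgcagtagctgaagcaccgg
Rpl39l: aggCCTTTCCggatttccggtggtcgccat

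A run of 8 or more C or T in that 30-base window on the transcribed strand was found in 40.35% of the 57 canonical genes in the table (23 genes) and in 13.01% of all 27025 genes in it. Within 40 bases of the start on either side, on the transcribed strand, CTTTCC was present in 28.07% of the canonical genes and 4.315% of all genes. CTTTTC was present in 14.04% and 3.419%, and CTCTTTCC, which contains CTTTCC, in 10.53% and 0.4218%. Over all 300 bases and both strands, CCGGAAG was present in 42.11% against 9.928%, AAGATGG in 15.79% against 7.278% and TATAAA in 10.53% against 15.67%. A match is a description of the letters and not a measured start or binding site.

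The coding starts of the Rps27 family show the second feature. The first 60 coding bases of each gene follow, read from the GENCODE transcript of the same genome, and capitals in Rps27l mark its 18 differences from Rps27. Rps27 lies on chromosome 3 (90212522 to 90213651, minus strand), Rps27rt on chromosome 9 (114982366 to 114982739, minus) and Rps27l on chromosome 9 (66946086 to 66949516, plus).
Rps27: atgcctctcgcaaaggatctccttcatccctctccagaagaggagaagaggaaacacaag
Rps27rt: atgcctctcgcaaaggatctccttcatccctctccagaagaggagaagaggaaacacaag
Rps27l: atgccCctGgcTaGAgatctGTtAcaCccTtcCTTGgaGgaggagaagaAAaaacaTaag

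Rps27rt carries the same 252 coding bases as Rps27 with 100% identity, whereas Rps27l shares 77.25% with Rps27. Only 12 of the 9374 reads counted for Rps27rt over all libraries were unique, or 0.128%, and Rps27 had 0.576% unique reads. By contrast 94.4% of the Rps27l reads were unique. Levels of Rps27rt and Rps27 on total reads are therefore uncertain, because the authors' counting could split reads between the identical copies.

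The whole gene family shared this property to different degrees. The members' reads were 45.9 to 46.8% unique per library, against 84.6 to 85.9% for all other genes. Among the 76 canonical genes the median unique share was 39.96%. It was under 1% for 10 genes, under 10% for 18 and under 50% for 46, and over 90% for 14 and over 99% for 9. The lowest shares belonged to Rpl24 (0.0692%), Rps6 (0.104%), Rps27rt (0.128%), Rps23 (0.520%) and Rpl13 (0.560%). At the other end all 395902 reads of Rps9 were unique, as were those of Rpl39l and Rps19bp1, and Rpl8 had 367219 unique of 367220 reads. Differences in genes of low unique share rest on reads that could also come from their copies.

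For some genes a copy outside the rule held many of the reads. Rps12, a small subunit protein gene, had 6347 total reads over the 12 libraries, and its pseudogene Rps12-ps3 had 314993, of which 1 was unique. Their coding sequences were identical over 396 bases. Rpl10-ps3 held 131683 reads with 126 unique ones, fewer than the 179291 of Rpl10, and it matched Rpl10 over all 642 coding bases. Rps12-ps3 lay between 1306 and 2451 CPM and Rps12 between 27.5 and 52.3, so the low level of Rps12 below is a level of the row and not of the protein's message. The 7 named pseudogenes together moved the members' share of reads in the median library from 12.3% to 12.6%.

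Per length (reads per kilobase of annotated exon and per library total of 1e+06 gene reads, with no TMM scaling, mean of 12 libraries), the highest level was that of Rplp1 at 4937, a protein of the stalk that recruits elongation factors. Rplp0, the base of the same stalk, had 2841 and Rps3a1 2769. The lowest canonical genes were Rps12 at 17.9, Rps15a at 202 and Rpl35a at 254. Levels per length had a median of 780 in the large and 867 in the small subunit. Their spread depended on the length used: the annotated exon length of the canonical genes had a median of 1775.5 bases and the principal transcript 853, and the highest and lowest level differed 275-fold on the first and 79.3-fold on the second scale, or 20.2-fold on the second without Rps12. Across the 76 genes Spearman's rho between the scales was 0.78 (genes of the same libraries, a description), and single genes moved. On principal transcripts Rplp1 stayed highest at 4937, but Rps3a1 was at rank 15 and Rpl35a at rank 46 of the 85 members. Among the paralog rows Rpl36al was at 263 per annotated exon length, next to the canonical Rpl22 at 262. On that scale Rpl22l1 at 147, Rps27rt at 145, Rps27l at 117 and Rpl7l1 at 27.5 lay below all canonical genes but Rps12. Rps19bp1 at 13.0, Rpl39l at 1.23 and Rpl3l at 0.0145 lay below Rps12 as well. This order depended on the length used. On principal transcripts Rpl22l1 was at 531, above canonical genes such as Rpl35 (522), Rpl22 (372) and Rps15a (244), and Rpl7l1 at 36.9 was below Rps12 (62.2).

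**Figure D1:**
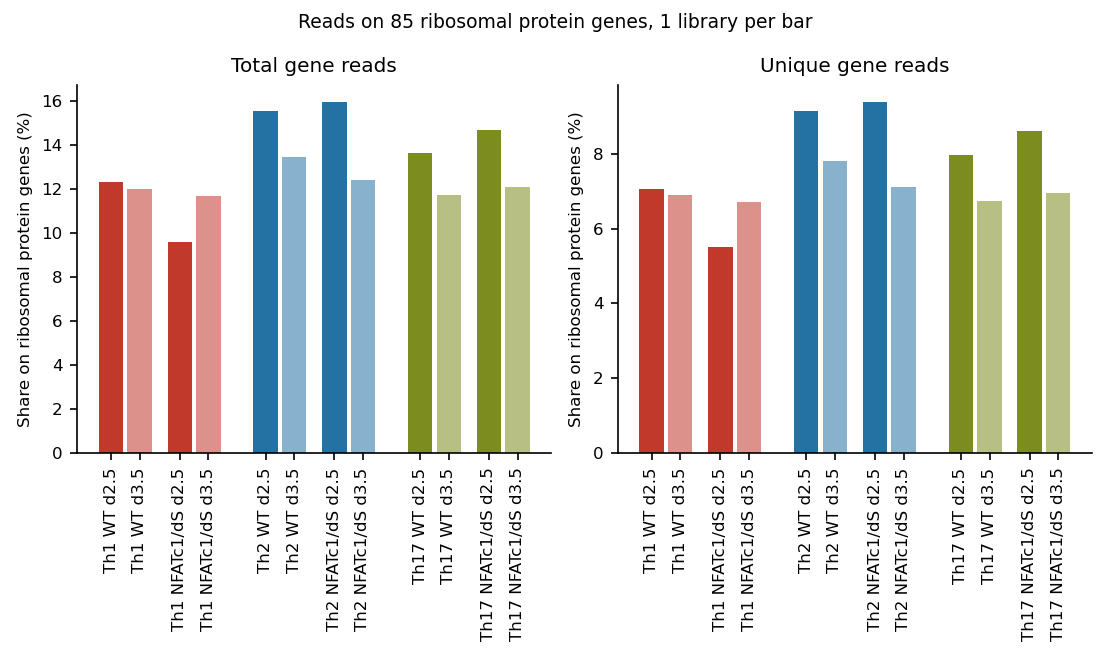
Share of all gene reads (percent, y axis) that fell on the 85 ribosomal protein genes in each of the 12 libraries, for total reads and for unique reads. Th2 libraries at day 2.5 were highest at 15.5 and 16.0% of total reads, and the Th1 NFATc1/ΔS library at day 2.5 was lowest at 9.59%.

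Together the members took 9.59 to 16.0% of total gene reads. In Th1 the share was 12.3% in WT and 9.59% in NFATc1/ΔS at day 2.5, and 12.0% and 11.7% at day 3.5. In Th2 it was 15.5% and 16.0% at day 2.5, and 13.5% and 12.4% at day 3.5. In Th17 it was 13.7% and 14.7% at day 2.5, and 11.7% and 12.1% at day 3.5.

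At both days the Th2 share was above the Th17 share of the same genotype, and in both cell types it was lower at day 3.5. Unique reads gave the same order within these cell types, from 9.16% (WT) and 9.38% (NFATc1/ΔS) in Th2 at day 2.5 to 7.82% and 7.11% at day 3.5, and from 7.96% and 8.61% in Th17 at day 2.5 to 6.74% and 6.94% at day 3.5. The share fell by 2.54 ± 0.740 percentage points (SD, n = 4 pairs) from day 2.5 to day 3.5 in Th2 and Th17, in 4 of 4 pairs. It was 1.29 ± 0.710 points (SD, n = 4 pairs) higher in Th2 than in Th17, in 4 of 4 pairs. The difference of Th1 from Th2 was −2.95 ± 2.51 points (lower in 4 of 4 pairs) and that from Th17 −1.65 ± 2.39 points (lower in 3 of 4 pairs). The genotype difference over 6 pairs was −0.383 ± 1.35 points, with 3 pairs higher and 3 lower. These sums carry no test because the members are not replicates. A lower share can be fewer ribosomal protein transcripts or more of other transcripts, and fewer cells of a type and less RNA per cell cannot be told apart in bulk RNA.

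Reads of the 2 subunits kept a similar ratio, with a small shift between the days. The ratio of large to small subunit reads was 1.45 to 1.52 in all libraries on total reads, and 1.22 to 1.30 on unique reads. On total reads in Th2 and Th17 it was 1.49 to 1.52 at day 2.5 and 1.45 to 1.47 at day 3.5, so the 4 libraries of each day did not overlap. In Th1 the ratio on total reads went the other way, from 1.45 to 1.49 in WT and from 1.46 to 1.48 in NFATc1/ΔS. Unique reads did not show this rise, with 1.23 and then 1.22 in WT Th1 and 1.26 and then 1.22 in NFATc1/ΔS Th1. In Th2 and Th17 the ratio on unique reads was 1.27 to 1.30 at day 2.5 and 1.23 to 1.24 at day 3.5.

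**Figure D2:**
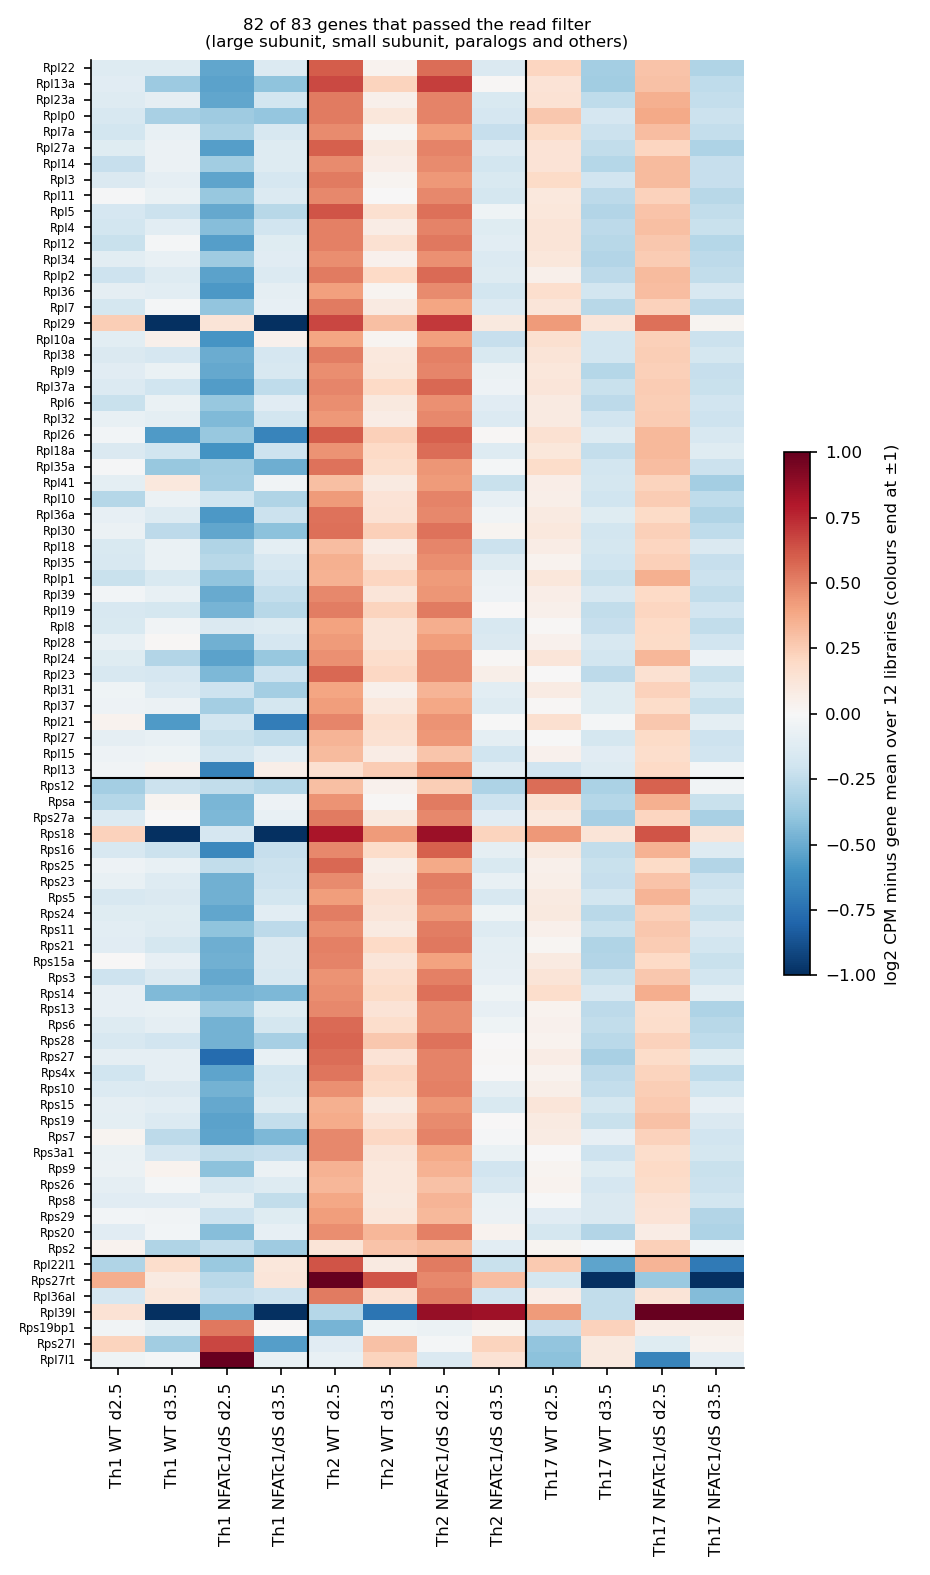
Level of 82 of the 83 tested members (rows) in each of the 12 libraries (columns), as log2(CPM + 0.1) minus the gene's mean over the libraries. Most rows are highest in the Th2 libraries at day 2.5; Rps18, Rpl29 and Rpl39l stand out as low in the Th1 libraries at day 3.5.

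The profiles over libraries were alike for most members. For the 81 members with a mean log2 CPM of at least 5, the correlation of a gene with the mean of the others over the 12 libraries had a median of 0.962, and 67 were over 0.9. The points share depth, scaling and the same 12 libraries, so this describes them only. The lowest values were −0.52 for Rpl7l1, −0.22 for Rps27l, 0.55 for Rpl29, 0.57 for Rps27rt and 0.59 for Rps18. Rpl7l1 is a paralog of Rpl7, and Rps27l is a paralog of Rps27 known as a target of p53. Among 12714 genes outside the members, those most like the members' mean profile were Rack1 (r = 0.982), itself a protein of the small subunit, Eif3k (0.976), Rps12-ps3 (0.973), Fam78a (0.969) and Naca (0.966), over 12 libraries.

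Some Th1 libraries stood apart, and comparisons of Th1 with the other cell types are given with and without them. The Th1 NFATc1/ΔS library at day 2.5 had the lowest member share, the highest Rpl7l1 (189 CPM against 57.0 to 105 in the other libraries) and the lowest Rps27 (522 CPM). The Th1 libraries of day 3.5 differed in which reads were unique. Of Rpl30 reads 0.582 to 0.734% were unique in them and 16.0 to 17.8% in the other 10 libraries. For Rpl35a the values were 0.349 to 0.448% against 13.1 to 14.6%, and for Rps2 1.07 to 1.34% against 21.2 to 26.8%.

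The same held for Rpl29 (1.38 to 1.68% against 17.5 to 19.6%), Rps18 (3.22 to 3.80% against 8.26 to 9.38%), Rplp0 (36.1 to 36.4% against 58.4 to 59.9%) and Rpl26 (26.4 to 27.0% against 38.5 to 39.9%). Of 82 members with at least 100 reads in every library, 8 (WT) and 7 (NFATc1/ΔS) lay over 5 points from the gene's median unique share in these libraries, and at most 1 did so in any other library. Over 7999 genes of all kinds the numbers were 162 and 166, against 60 to 149 in the other libraries. The cause was not tested.

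**Figure D3:**
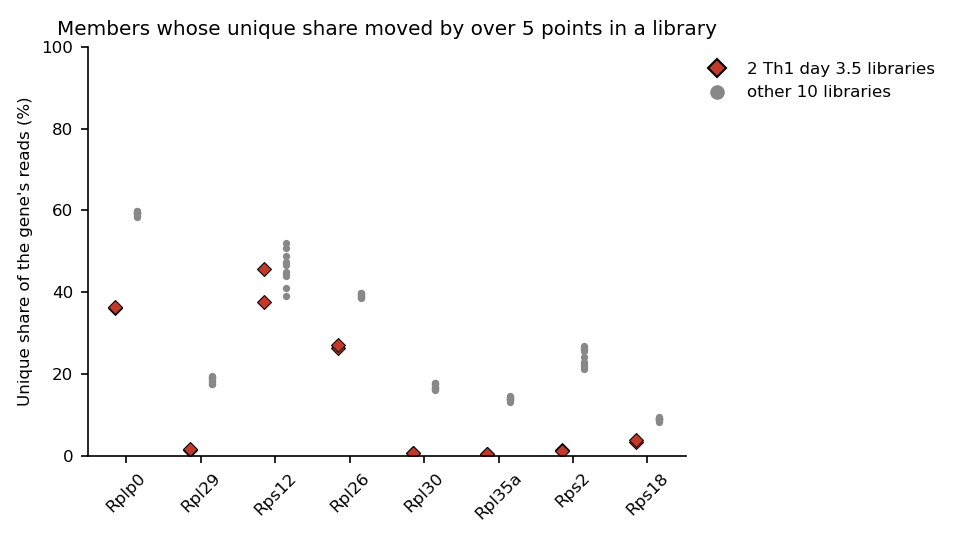
Unique share of reads (percent, y axis) of members in the 2 Th1 libraries of day 3.5 (diamonds) and the other 10 libraries (points). For Rpl30, Rpl35a, Rps2, Rpl29, Rps18, Rplp0 and Rpl26 the diamonds lie below all other libraries.

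Between day 2.5 and day 3.5, ribosomal protein genes fell in Th2 and Th17 cells. Over the 4 pairs of these cell types, edgeR called 76 of 83 members lower and 2 higher at an adjusted p under 0.05 (Benjamini-Hochberg over 12415 genes), where 40.5% of all genes were called, 19.7% lower and 20.8% higher. The median log2 fold change of the members was −0.42, against 0.03 over all genes. The fall took in 44 of 45 large and 29 of 31 small subunit genes and 3 of 7 paralog rows. Rpl13 and Rps2 were among the canonical genes that did not pass, and Rpl39l and Rps19bp1 among the others did not pass either.

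Rpl22l1 had the largest change. It encodes a paralog of Rpl22, an RNA-binding large subunit protein with a known part in T cell development. It was at 428 CPM in WT and 398 in NFATc1/ΔS in Th2 at day 2.5, and at 294 and 237 at day 3.5. In Th17 it went from 332 and 350 to 192 and 169. The days did not overlap, and the log2 fold change was −0.78 ± 0.08 (SE; edgeR adjusted p = 7.22e-05).

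Rpl22 itself fell with it. In Th2 it was at 1109 and 1076 CPM at day 2.5 and at 748 and 658 at day 3.5. In Th17 it was at 846 and 888, then at 577 and 591. The days did not overlap, and the log2 fold change was −0.60 ± 0.06 (edgeR adjusted p = 8.23e-05).

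Rpsa, a small subunit protein that is also known as a laminin receptor, was at 4940 to 6382 CPM at day 2.5 and 3654 to 4483 at day 3.5 in these cells, a log2 fold change of −0.54 ± 0.07 (edgeR adjusted p = 0.000314). Rplp0 went from 5421 to 6446 CPM to 3889 to 4876, a change of −0.52 ± 0.07 (edgeR adjusted p = 0.000356). The days did not overlap for either gene. Rpl13a (−0.54), Rpl23a (−0.53), Rpl7a (−0.51) and Rpl27a (−0.51), all of the large subunit, changed by similar amounts, and their days overlapped only for Rpl13a. Rps12 and Rps27rt, rows whose reads are shared with identical copies, changed by −0.58 ± 0.10 and −0.59 ± 0.12 (edgeR adjusted p = 0.000955 and 0.00397).

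The 2 members that rose were paralogs. Rpl7l1 was at 85.4 (WT) and 81.5 (NFATc1/ΔS) CPM in Th2 at day 2.5 and at 105 and 99.7 at day 3.5, and in Th17 at 67.7 and 57.0, then at 96.1 and 82.99. The log2 fold change was 0.41 ± 0.07 (edgeR adjusted p = 0.00112), in 4 of 4 pairs, though the Th17 values of day 3.5 reached into those of Th2 at day 2.5. Rps27l went from 83.8 and 89.4 to 111 and 106 in Th2 and from 69.1 and 83.1 to 97.1 and 92.9 in Th17, a change of 0.33 ± 0.07 (edgeR adjusted p = 0.00457) with no overlap between the days.

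**Figure D4:**
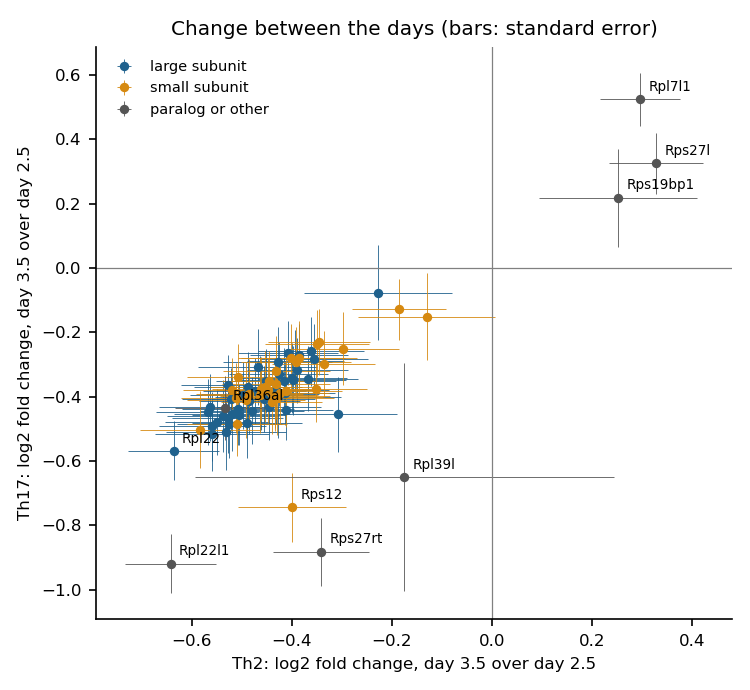
Log2 fold change from day 2.5 to day 3.5 of each tested member in Th2 (x axis) and in Th17 (y axis), with standard errors. Nearly all members lie below 0 on both axes; Rpl7l1, Rps27l and Rps19bp1 lie above.

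Both cell types showed the fall on their own. In the fit to the 8 libraries, Th2 had 74 members lower and 2 higher (29.7% of all genes called) and Th17 65 lower and 2 higher (34.3%). The lists shared 64 lower members, which were 86.5% of the Th2 list and 98.5% of the Th17 list, and Rpl7l1 and Rps27l were higher in both. With 74 and 65 of 83 members on the lists, most of this overlap follows from their lengths alone, so it is a description. Th2 and Th17 share no library in these comparisons, but both come from the same fit with a shared estimate of the spread. With 1 library left out a cell type has a lone sample at 1 day, and the counts then fell to 5 of 83 without either Th2 NFATc1/ΔS library, 45 without the Th2 WT library of day 3.5, and 9 and 17 without the Th17 NFATc1/ΔS library of day 2.5 and day 3.5. A test of equal day changes in Th2 and Th17 by edgeR called 0 members (1.55% of all genes), with 3 at an unadjusted p under 0.05, and DESeq2 called 0 as well.

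Unique reads gave 65 members lower and 3 higher of 82 over the 4 pairs, and 67 were called on both kinds of reads. The members' median on unique reads was −0.40, against 0.03 over all genes. The share of all genes called on unique reads is not given for this or the other comparisons. Rpl21 changed in opposite directions, by −0.33 on total reads and 0.40 on unique reads (edgeR adjusted p = 0.00351 and 0.0341), and 10 members were called on total reads alone. Among those were Rpl36a (−0.40 on total and 0.34 on unique reads), Rpl27 (−0.32 and 0.27), Rps27a (−0.50 and 0.07), Rps6 (−0.41 and 0.15) and Rps23 (−0.44 and −0.07). For all 6 of these genes at most 1.37% of reads were unique. Of the 17 members with over 90% unique reads, 14 were lower and 1 higher on unique reads.

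Over all 6 pairs with Th1 included, edgeR called 0 of 83 members (0% of all genes), with 18 at an unadjusted p under 0.05 and a median of −0.25. The share of all genes at that unadjusted p is not given. DESeq2 called 5 members lower there (1.16% of all genes). The spread between libraries that edgeR estimated was a coefficient of variation of 26.0% with Th1 and 9.26% without.

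In Th1 cells few members passed between the days. Their share of reads went from 12.3% to 12.0% in WT and from 9.59% to 11.7% in NFATc1/ΔS, where the day 2.5 library is the one that stood apart. With all 12 libraries in the model edgeR called 4 members lower from day 2.5 to day 3.5 and 0 higher (5.7% of all genes called, 2.7% lower and 3% higher), and the members' median was 0.12, against −0.02 over all genes. Rps18 was at 1718 CPM (WT) and 1308 (NFATc1/ΔS) at day 2.5 and at 402 and 409 at day 3.5, where all other libraries held at least 1308. The change was −1.89 ± 0.15 (edgeR adjusted p = 0.00147). Rpl29 went from 812 and 748 to 227 and 210, with 699 to 1119 in the 8 Th2 and Th17 libraries, a change of −1.84 ± 0.13 (edgeR adjusted p = 0.000804).

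Rps27l fell from 106 and 144 to 71.2 and 61.8 CPM (−0.90 ± 0.18, edgeR adjusted p = 0.041), where its Th2 and Th17 levels rose, and Rpl21 changed by −0.56 ± 0.12 (edgeR adjusted p = 0.0483). Both Rps18 and Rpl29 also lost most of their unique share in these libraries, as given above. On unique reads their changes were −3.19 and −5.48, and Rpl35a (−5.39), Rpl30 (−4.72), Rps2 (−4.56), Rpl26 (−0.96) and Rplp0 (−0.80) were called as well, while on total reads these 5 changed by −0.26, −0.05, −0.23, −0.42 and −0.11 and did not pass.

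A test of equal day changes in the 3 cell types called 4 of 83 members, a share no larger than the 4.83% of all genes. These were Rpl29 (edgeR adjusted p = 0.0169), Rpl22l1 (0.0208), Rps18 (0.0241) and Rpsa (0.0492). The day change of Rpl22l1 was 0.48 in Th1, −0.65 in Th2 and −0.92 in Th17 in this model, and that of Rpsa 0.35, −0.59 and −0.50. Rpsa rose from 3657 to 4531 CPM between the WT Th1 libraries and from 3236 to 4311 between the NFATc1/ΔS ones, but within Th1 alone it did not pass (edgeR adjusted p = 0.139). In the same 12-library model edgeR called 0 members between days within Th2 and 0 within Th17 (0% of all genes each), with 73 and 62 at an unadjusted p under 0.05, and DESeq2 called 21 and 17 lower. The shares of all genes at an unadjusted p under 0.05, or called by DESeq2, are not given there. Neither the unadjusted nor the DESeq2 counts therefore set the members apart. The count of unequal members rose when 1 Th1 WT library was left out and fell when any Th2 or Th17 library was left out. Each such fit has a lone library at 1 day of a cell type, so its count is not read as a result about the members.

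Th2 cells held more ribosomal protein transcripts than Th17 cells. In the 8 libraries of these types edgeR called 66 of 83 members higher in Th2 and 0 lower, where 41.5% of all genes were called, 20.2% of them higher. The median was 0.25, against −0.03 over all genes. The members took in 36 of 45 large and 25 of 31 small subunit genes and 5 of 7 paralog rows, and 72 were higher in Th2 in 4 of 4 pairs of the same genotype and day. On unique reads 58 were higher and 1 lower, with a median of 0.24 against −0.03 over all genes. With library size as the only scaling, 37 were higher and 2 lower, and without the WT pair of day 3.5 the count was 32. The share of all genes is not given for these last counts or for the count over pairs, so they do not set the members apart.

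Rps27rt differed most. It was at 107, 75.2, 67.7 and 60.1 CPM in Th2 (WT at day 2.5 and 3.5, then NFATc1/ΔS) and at 42.8, 23.6, 37.5 and 20.0 in Th17, and Th1 had 40.2 to 62.5. Th2 and Th17 did not overlap, and the log2 difference was 1.35 ± 0.13 (edgeR adjusted p = 0.000291). Of the reads shared between Rps27rt and Rps27, Rps27rt had 5.12 to 7.57% in Th2, 5.82 to 7.15% in Th1 and 2.39 to 4.38% in Th17.

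Rps20, a small subunit protein that binds Mdm2, was at 2050, 1866, 2101 and 1522 CPM in Th2 and at 1315, 1208, 1560 and 1198 in Th17, a log2 difference of 0.51 ± 0.07 (edgeR adjusted p = 0.00027). The cell types overlapped when days were mixed, though each Th2 library was above the Th17 library of its genotype and day. Next came Rpl13a (0.44), Rps28 (0.41), Rpl22l1 (0.41), Rpl23 (0.41), Rps4x (0.37), Rps6 (0.37), Rpl36al (0.36) and Rpl30 (0.36). All of them overlapped between the cell types when days were mixed. In the fit to 12 libraries, Rps27rt was the 1 member called on total reads, at 1.33 ± 0.19 (edgeR adjusted p = 0.00303, with 12% of all genes called and 6.36% higher). The median of the members was again 0.25. On unique reads, where Rps27rt could not be tested, that fit called 0 members.

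Th1 cells had less than Th2 cells. Over 4 blocks of genotype and day, edgeR called 36 of 83 members lower in Th1 and 0 higher (28.6% of all genes called, 14% lower and 14.6% higher), with a median of −0.45 against 0.07 over all genes. These were 20 of 45 large and 16 of 31 small subunit genes, and 57 members were lower in 4 of 4 blocks. The share of all genes lower in 4 of 4 blocks is not given, so that count does not set the members apart. Unique reads gave 25 lower of 82, with a median of −0.40 against 0.06 over all genes. Rps18 (−1.43 ± 0.31, edgeR adjusted p = 0.00969) and Rpl29 (−1.12 ± 0.29, adjusted p = 0.02) had the largest differences. Without the Th1 libraries of day 3.5 they were at −0.77 and −0.48 and still passed. Rpl29 did not pass without either Th2 library of day 3.5 (−1.04 each). The count of 36 fell to 13 without the Th2 WT library of day 3.5, to 14 without either Th2 library of day 2.5, to 15 without the Th1 WT library of day 2.5, and to 21 and 18 without the Th17 WT library of day 2.5 and the Th17 NFATc1/ΔS library of day 3.5.

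Rpl26, a large subunit protein known to bind p53 mRNA, was at 1100, 758, 863 and 710 CPM in Th1 and at 1707, 1320, 1695 and 1133 in Th2. The cell types did not overlap, and the difference was −0.77 ± 0.10 (edgeR adjusted p = 0.00101). It was −0.77 without the Th1 libraries of day 3.5 and −0.76 without those of day 2.5. Rpl13a (−0.74), Rps14 (−0.65), Rpl30 (−0.64), Rps28 (−0.63), Rpl5 (−0.60) and Rpl24 (−0.60) did not overlap either, and Rpl21 (−0.62) did. Rpl30 was at −0.82 without the Th1 libraries of day 3.5 and at −0.47 without those of day 2.5, and passed both times. On unique reads Rpl21 was at 0.22, and with 0.635% unique reads its direction depends on the reads used.

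Against Th17, Th1 had 2 members lower and 0 higher by edgeR (4.77% of all genes called, 2.83% lower and 1.95% higher): Rpl26 (−0.45 ± 0.10, adjusted p = 0.0421) and Rpl21 (−0.43 ± 0.10, adjusted p = 0.0437), the latter at 0.10 on unique reads. The median was −0.17. Neither gene passed when any 1 of 10 libraries was left out, that is, any but the Th1 libraries of day 2.5. Both Th1 comparisons depended on the day. Without the Th1 libraries of day 3.5, 76 members were lower and 2 higher against Th2 (46.5% of all genes called, median −0.73), and 52 lower and 2 higher against Th17 (31.2%, median −0.45). Without those of day 2.5, which include the library with the lowest share, 32 were lower and 1 higher against Th2 (46.5%, median −0.19), and 9 lower and 8 higher against Th17 (30.4%, median 0.08).

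Between genotypes the canonical genes showed no called difference. Over 6 pairs edgeR called 0 of 83 members (0% of all genes), 1 had an unadjusted p under 0.05, and DESeq2 and limma-voom called 0. The median was −0.07, and the canonical genes lay between −0.15 and −0.01 with a median SE of 0.08. Within Th1, Th2 and Th17 edgeR called 0 members each (0% of all genes each), with 1, 2 and 1 at an unadjusted p under 0.05 and medians of −0.19, −0.11 and 0.08, and DESeq2 called 0 in each. The test of equal genotype effects in the 3 cell types called 0 (0% of all genes), with 1 at an unadjusted p under 0.05, and DESeq2 called 0. When a Th1 library of day 3.5 was left out, more members were called within Th1. That fit leaves the genotypes to be compared by the day 2.5 pair with its low library, so its count is not read as a result.

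In the 4 Th2 and Th17 pairs, 2 members passed, 1 higher and 1 lower (2.13% of all genes called, 0.749% higher and 1.38% lower), both of them paralogs. Rpl39l, a paralog of the exit tunnel protein Rpl39 best known from testis, had 8, 6, 15 and 9 reads in WT (Th2 at day 2.5 and 3.5, then Th17) and 20, 21, 38 and 36 in NFATc1/ΔS. In CPM these were 0.611, 0.422, 1.06 and 0.631 against 1.48, 1.46, 2.84 and 1.86. The genotypes did not overlap, the value was higher in 4 of 4 pairs, and the log2 fold change was 1.49 ± 0.28 (edgeR adjusted p = 0.00965). DESeq2 did not call it, and it did not pass without the Th17 pair of day 3.5 (1.47). In Th1 the order was the opposite, with 13 and 5 reads in WT and 8 and 1 in NFATc1/ΔS. Rpl39l stayed under 0.243% of the reads of Rpl39 and Rpl39l together.

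Rps27rt was lower in NFATc1/ΔS in 4 of 4 Th2 and Th17 pairs, by −0.37 ± 0.08 (edgeR adjusted p = 0.0246), although the genotypes overlapped across cell types, and it cannot be tested on its 12 unique reads. It did not pass without the Th2 pair of day 2.5 (−0.25) or of day 3.5 (−0.38). At day 2.5 alone it was the 1 member called (−0.45 ± 0.10, edgeR adjusted p = 0.0496; 1.47% of all genes), at −0.19 and not past the threshold without either Th2 library of day 2.5, and DESeq2 called 0 there. At day 3.5 edgeR called 0 members (2.25%), 6 had an unadjusted p under 0.05, and DESeq2 called 0. The members' median genotype difference was 0.08 at day 2.5 and −0.11 at day 3.5. A test of equal genotype effects at both days called 0 members (0.275%), with 11 at an unadjusted p under 0.05, and DESeq2 called 0. For these tests the share of all genes at an unadjusted p under 0.05 is not given.

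**Figure D5:**
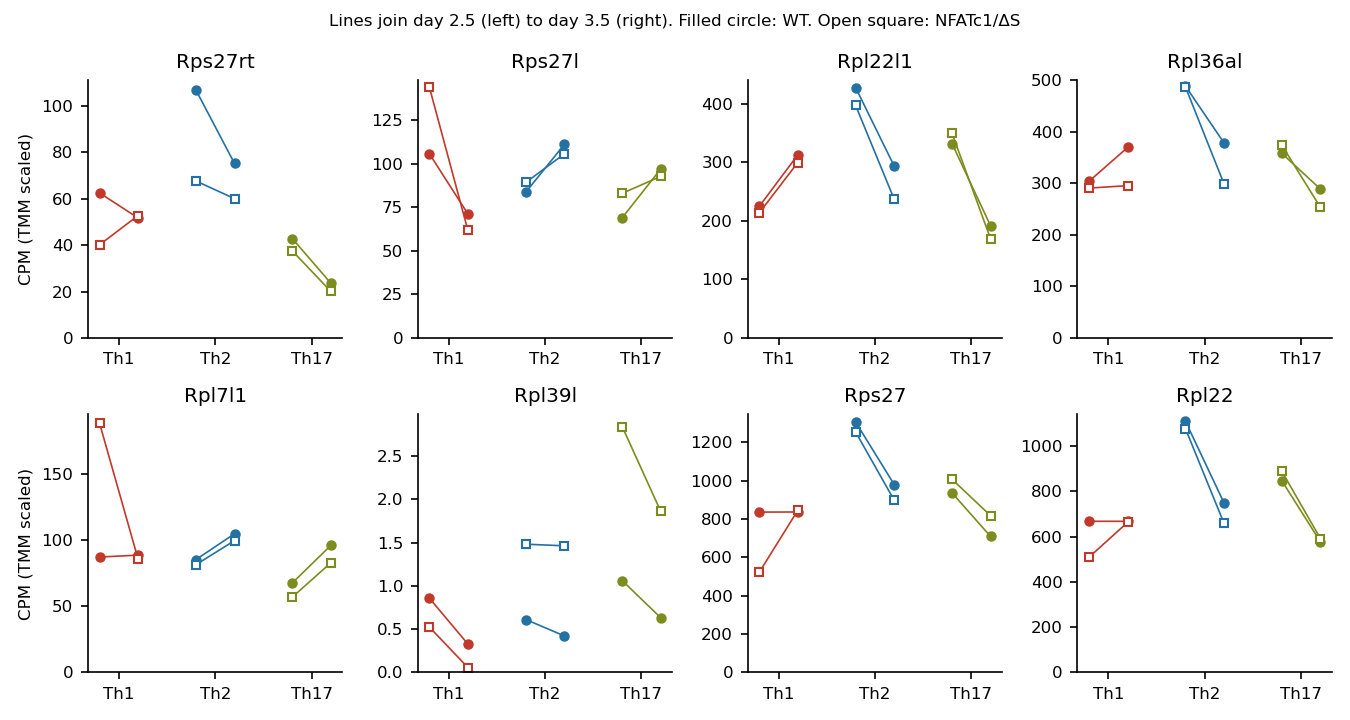
CPM (y axis, one panel for each paralog or parent gene) in each of the 12 libraries by cell type, day and genotype. Rps27rt is lowest in Th17, Rpl22l1 and Rpl22 are lower at day 3.5 in Th2 and Th17, and Rpl7l1 and Rps27l are highest in the Th1 NFATc1/ΔS library of day 2.5.

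As a share of the reads on a paralog and its parent, Rpl22l1 had 27.0 to 28.3% in Th2 and Th17 at day 2.5, 22.3 to 28.2% at day 3.5 and 25.2 to 31.9% in Th1. Rpl36al had 27.8 to 35.3% of its pair with Rpl36a over all libraries. Rpl7l1 had 2.12 to 2.70% of its pair with Rpl7 in Th2 and Th17 at day 2.5 and 4.22 to 4.94% at day 3.5, with no overlap, and reached 9.95% in the Th1 NFATc1/ΔS library of day 2.5. Rps27l likewise had 6.03 to 7.62% of its pair with Rps27 at day 2.5 and 10.2 to 12.0% at day 3.5 in Th2 and Th17, and 21.6% in that Th1 library. Coding identity to the parent was 69.31% for Rpl22l1, 87.74% for Rpl36al, 57.19% for Rpl7l1, 84.97% for Rpl39l, 84.74% for Rpl10l and 74.11% for Rpl3l.

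Other genes of translation were read beside the members. Of further ribosome components, Fau (−0.50 ± 0.07, edgeR adjusted p = 0.000514) and Rack1 (−0.37 ± 0.07, adjusted p = 0.00201) fell between the days in Th2 and Th17. Of 23 other genes with TOP mRNAs, 21 fell and 0 rose, with a median of −0.43, where 19.7% of all genes fell and 20.8% rose. Gas5, a host of small nucleolar RNAs, went from 588 to 667 CPM at day 2.5 to 277 to 319 at day 3.5 (−1.02 ± 0.06, edgeR adjusted p = 5.81e-06). Snhg1, a host gene of the same kind, changed by −1.20 ± 0.10, Snhg5 by −0.77 ± 0.10 and Npm1, a nucleolar chaperone of ribosome assembly, by −0.84 ± 0.07.

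The 78 mitochondrial ribosomal protein genes did not share the fall, with 10 higher, 10 lower and a median of 0.04. Of 28 genes for Myc and ribosome assembly, 14 rose and 6 fell, with a median of 0.27. Those that rose included Rrs1 (0.90 ± 0.09), Nolc1 (0.88 ± 0.08) and Nop56 (0.80 ± 0.08), and Npm1 is also on that list. Of 18 genes for mTORC1 and TOP control, 4 rose and 3 fell, shares near those of all genes given above, so this list as a whole did not stand out. Mtor (0.34 ± 0.06) and Sesn2 (0.36 ± 0.07) were among those that rose, and Ddit4 (−1.04 ± 0.09) and Rragd (−0.47 ± 0.08) among those that fell. Of 13 genes for chaperones of ribosomal proteins and their quality control, 4 rose and 1 fell, with Heatr3, which helps to import Rpl5, at 1.42 ± 0.11, Grwd1 at 0.64 ± 0.11, Trp53 at 0.50 ± 0.07 and Sbds at −0.30 ± 0.08.

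In the fit to the 8 Th2 and Th17 libraries, where 20.2% of all genes were higher in Th2 and 21.2% lower, Fau (0.34) and Rack1 (0.26) were higher in Th2, as were 10 of the 23 TOP genes, with 3 lower. Of the 28 Myc and assembly genes 14 were lower in Th2 and 2 higher, with a median of −0.20, among them Mdn1 (−0.92), Myc (−0.81), Polr1a (−0.40) and Nolc1 (−0.38). Of the 78 mitochondrial ribosomal protein genes 8 were higher and 7 lower. In the fit to 12 libraries (6.36% of all genes higher and 5.67% lower) neither Fau nor Rack1 passed, 0 TOP genes were higher and 1 lower, 1 Myc and assembly gene was higher and 1 lower, and 0 mitochondrial ribosomal protein genes passed. Against Th2, where 14% of all genes were lower in Th1 and 14.6% higher, Th1 had Fau and Rack1 lower, 4 of 23 TOP genes lower and 0 higher, 3 of 28 Myc and assembly genes higher and 0 lower, and 9 of 78 mitochondrial ribosomal protein genes higher and 2 lower. The shares of the last 3 lists are near those of all genes or below them. Between genotypes in the 4 Th2 and Th17 pairs edgeR called 0 genes of any of these 6 lists.

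Markers of other cells moved with some of these comparisons. The 9 B cell markers summed to 81.6 to 126 CPM in Th2, 44.4 to 88.2 in Th17 and 21.5 to 69.7 in Th1. Of the 8 tested, 7 were higher in Th2 than in Th17 in the fit to 8 libraries (median 1.60; 4 in the fit to 12) and 8 lower in Th1 than in Th2 (median −3.64). Dendritic cell markers summed to 21.7 to 53.4 CPM in Th2, 7.10 to 35.3 in Th17 and 10.0 to 22.3 in Th1, with Clec9a at 0 in all libraries. Batf3, which T helper cells can also express, held much of these sums, at 16.4 to 44.8, 5.01 to 33.2 and 7.98 to 21.04. Myeloid markers summed to 4.25 to 18.9 over all libraries. Erythroid markers summed to 7.94 to 23.6 CPM in Th2 and Th17 at day 2.5 and 1.69 to 2.87 at day 3.5, and the B cell markers to 75.6 to 126 and 44.4 to 102. CD8 T and NK cell markers summed to 752 to 2112 in Th1, 312 to 631 in Th2 and 142 to 211 in Th17. Most of that was Gzmb, a granzyme that T helper cells can also express, at 690 to 1962, 266 to 579 and 104 to 151. Cd8b1, a chain of CD8, was at 9.55 to 21.5 in Th1, 18.03 to 22.5 in Th2 and 19.4 to 29.1 in Th17. Naive T cell markers went from 3274 to 3425 CPM at day 2.5 to 2550 to 2959 at day 3.5 in Th2 and Th17. The part of these cells in the results on ribosomal protein genes was not tested.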

How the data were processed

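The authors deposited 1 table of read counts per gene for each library, with total and unique gene reads in columns of their own per the file headers. Total gene reads are the sum of exon and intron reads. The build is GRCm38 per the submitters' processing notes. Neither the aligner nor the counter is named in the labels or headers. Members, gene lists and models were chosen with earlier results of these data known. Total gene reads were the main unit, unique reads the alternative.

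Differences were tested over all genes with edgeR 4.0.16 in R 4.3.3: filterByExpr (minimum count 10, minimum total 15), TMM scaling, quasi-likelihood fits (robust) and adjustment after Benjamini-Hochberg, called under 0.05. The SE is the log2 fold change divided by the root of F. Blocks were genotype by day for the cell types, cell type by genotype for the days, and cell type by day for the genotypes. Effects within a cell type came from 1 model of all 12 libraries. The 8 libraries of Th2 and Th17 were also fitted alone, a choice made after the 12-library results were known. A set of simulated counts with known changes was used to test the scripts.

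Named genes were, per comparison, the up to 10 members with the largest called change in each direction, the paralogs with their parent genes, and the members with the highest and lowest level and unique share. Members discussed for their values in the Th1 libraries were chosen after these were seen. Alternatives were unique reads, RLE size factors, library size alone, DESeq2 1.42.0, limma-voom (limma 3.58.1), no read filter, members left out of the scaling, no blocks, and each library or pair left out. Added after seeing the data were the fits without the Th1 libraries of day 3.5, unique reads of members with over 90% unique reads, and levels per principal transcript length. 1 further gene is not analysed here, and the values of a few others are not reported here. Reads carry no molecular identifiers, so counting precision assumes independent reads.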

Additional observations from a re-analysis of the deposited data

Results flagged for a closer look

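Single libraries lay far from the rest of their group in 5 of 71 groups checked, where chance flags about 1 in 20. In Th1 the NFATc1/ΔS library of day 2.5 was low for Rpl22 (509 CPM) and Rps27 (522 CPM) and high for Rpl7l1 (189 CPM), and the WT library of day 3.5 was high for Rpl36al (369 CPM). The Th2 WT library of day 3.5 had the highest share of unique reads on the members at that day, 7.82%. Each group holds libraries that differ by labelled genotype, day or cell type, so a library that stands apart can differ by its label.

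The day change differed between the 3 cell types by edgeR's test of equal effects for Rpl29 (adjusted p = 0.0169), Rpl22l1 (adjusted p = 0.0208), Rps18 (adjusted p = 0.0241) and Rpsa (adjusted p = 0.0492). These were 4.82% of the members, near the share of all genes (652 of 13503), so the count does not set the members apart. Rpl29 and Rps18 also lost most of their unique share in the Th1 libraries of day 3.5, as given above. Reads outside the rule were found on the pseudogenes Rps12-ps3 (314993 over 12 libraries) and Rpl10-ps3 (131683).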

How the results depend on the processing

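Counts are members called by edgeR unless another tool is named. The share of all genes called is not given beside them, so they show how the counts move and do not set the members apart. Of 1063 alternative values of 70 named member results, 925 kept direction and side of the threshold, 135 kept the direction without passing and 3 turned, all on unique reads: Rpl21 in Th1 against Th2 (0.22) and Th1 against Th17 (0.10), and Rps27a, day 3.5 against day 2.5 in Th17, 8 libraries (0.046). The counts for day 3.5 against day 2.5 over 4 Th2 and Th17 pairs, 78 in all, were 76 to 79 without 1 pair, 35 with no blocks and 15 among the 17 members with over 90% unique reads. In that last setting Th2 against Th17, 8 libraries gave 13, day 3.5 against day 2.5 in Th2, 8 libraries 15, in Th17 13, in Th1 1, equal day effect in the 3 cell types 1, Th1 against Th2 5, Th1 against Th17 0, Th2 against Th17 0, and NFATc1/ΔS against WT over 4 Th2 and Th17 pairs 1 and at day 3.5 1. All unique reads gave 0 for Th2 against Th17, 8 for day in Th1, 8 for equal day effects, 1 for genotype over 4 pairs, 2 at day 2.5, 2 at day 3.5 and 1 for equal genotype effects at both days, with a median share of 7.09% and a median level of 339 (1866 per principal transcript). DESeq2 called 61 in Th1 against Th2, 8 in Th1 against Th17, 10 in Th2 against Th17, 5 between days over 6 pairs, 21 in Th2, 17 in Th17, 20 with unequal day effects, 1 for genotype over 4 pairs and 0 at day 2.5. Library size alone, which shifted the median log2 fold change of all genes (0.21 in Th1 against Th2, −0.16 in Th2 against Th17, 0.18 between days over 4 pairs), gave 18 in Th1 against Th2, 39 in Th2 against Th17, 8 libraries, and 1 for genotype over 4 pairs. RLE gave 2 in Th2 against Th17. limma-voom gave 4 in Th1 against Th17, 2 in Th2 against Th17 and 0 for genotype at day 2.5, as did scaling without the members (0). No filter gave 21 in Th1 against Th2, 1 in Th1 against Th17, 2 between days in Th17, 1 for equal day effects in Th2 and Th17 and 1 for genotype at day 3.5. No blocks gave 0 in Th1 against Th17, 2 in Th2 against Th17, 2 in the 8 libraries and 0 for genotype over 4 pairs. Without the Th1 day 2.5 pair the counts were 17 (Th1 against Th17) and 71 (Th2 against Th17), and without that of day 3.5 78, 54 and 15 for the 3 comparisons. Without Th1, genotype gave 2 and day 78. Leaving out 1 library gave 13 to 46 (Th1 against Th2), 0 to 4 (Th1 against Th17) and 1 to 27 (Th2 against Th17). Leaving out 1 library or pair gave 32 to 77 (8 libraries), 0 to 3 (day, 6 pairs), 6 to 18 (day in Th1), 0 to 64 (equal day effects), 5 to 78 and 9 to 64 (day in Th2 and Th17, 8 libraries), 0 to 1 (equal day effects in Th2 and Th17), 0 to 21 (genotype in Th1), 0 to 2 (equal genotype effects), 1 to 2 (genotype, 4 pairs) and 0 to 1 at either day. The cause of these changes was not tested. No paired analysis by replicate number was possible because each combination has 1 library; the blocks pair libraries by label.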
